A study of Mus musculus with 4 samples.

Results

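The comparison described here set long-term haematopoietic stem cells (LT-HSC) against multipotent progenitors (MPP), both wild type (WT) and both recovered from the marrow of irradiated mice shortly after transplantation. Its members were chosen by their labels, and are 2 of the 4 one-colour Agilent arrays of the series, 1 per cell population. Donors were 10-week-old male C57BL/6J mice of the Ly5.2 type. LT-HSC were the CD34-negative, Flt3-negative part and MPP the CD34-positive, Flt3-positive part of LSK marrow cells, which lack lineage markers and carry Sca-1 and Kit. Both populations were stained for 30 min at 37 °C with CFSE, a dye that is diluted as cells divide, and injected into Ly5.1 congenic mice given 9.5 Gy. CFSE-positive cells were sorted again after 16 h, and their RNA was labelled with Cy3. The other 2 arrays held the same populations from donors in which the kinase p38 alpha was conditionally knocked out (cKO), and are given beside the wild-type values. The labels name no lineage or Ly5 gate for the second sort, and how many mice went into an array, the recipients' sex and the Cre driver of the knockout are not given in the sources used here.

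LT-HSC sit at the top of the blood hierarchy. In undisturbed marrow most of them rest outside the cell cycle, and they alone rebuild blood for the life of a transplanted mouse. MPP have lost that capacity, divide more often and feed the lymphoid and myeloid lineages. Resting stem cells are known for low rates of protein synthesis and for FoxO activity, whereas cycling progenitors run nucleotide synthesis, ribosome production and respiration at higher rates.

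With 1 array per side there is no replicate and no test, so each difference is given by its size, by the other probes of the gene and by the knockout pair, which shares no array with the wild-type pair. A difference is the log2 signal on the LT-HSC array minus that on the MPP array after each array's 75th percentile was subtracted. The error given with ± is the scanner software's own error, with a median of 0.21 for a difference between the 2 arrays, and does not cover cells, sorts or RNA amplification. Signals are given on a linear scale after all arrays were set to a common 75th percentile of 192. A gene is described by its brightest probe, and the call used is a difference of 2-fold or more. In bulk RNA, fewer cells of a type and less RNA per cell cannot be told apart.

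All 4 arrays lay on 1 slide and were scanned once. On each array 62.5% to 70.5% of spots stood well above background and 0 were saturated. The Y-linked genes Ddx3y, Eif2s3y, Kdm5d and Uty were well above background on both wild-type arrays, at differences of -0.28 ± 0.21, 0.36 ± 0.21, -0.20 ± 0.32 and 1.63 ± 0.34. The other probe of Uty stood at -0.60. Xist, the RNA of the inactive X chromosome, was not well above background on either array, and its antisense partner Tsix differed by 0.29 ± 0.39.

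At their brightest probes Cd34 and Flt3, the genes that part the gates, followed the labels. Both gates took cells with Sca-1 and Kit, so the labels give no direction for Ly6a and Kit. Cd34, the sialomucin by which the populations were parted, had a scaled signal of 1048 in WT LT-HSC and 8304 in WT MPP, with 3417 and 6934 on the knockout arrays. Both LT-HSC arrays were below both MPP arrays. The wild-type difference was -2.99 ± 0.20, or 7.92-fold, at the brightest probe (mm9 chromosome 1, 196787392 to 196787451) and -2.89 at the other, against -1.02 in the knockout pair. Flt3, the receptor kinase used for the same gate, gave 158 against 553 (-1.81 ± 0.21), with 180 against 400 in the knockout pair. Its 2 dimmer probes had the opposite sign, at 0.22 and 0.88. Ly6a, which encodes Sca-1, stood at 3932 against 1008 (1.96 ± 0.20), and at 4068 against 942 in the knockout pair. Kit, the stem cell factor receptor, differed by -0.60 ± 0.14 and by -0.15 in the knockout pair. Cd48 and Cd27, surface proteins that are gained as stem cells become MPP, were lower on the LT-HSC array at both of their probes, at -1.74 ± 0.20 and -1.08 for Cd48 and at -1.21 ± 0.20 and -1.22 for Cd27.

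**Figure D1:**
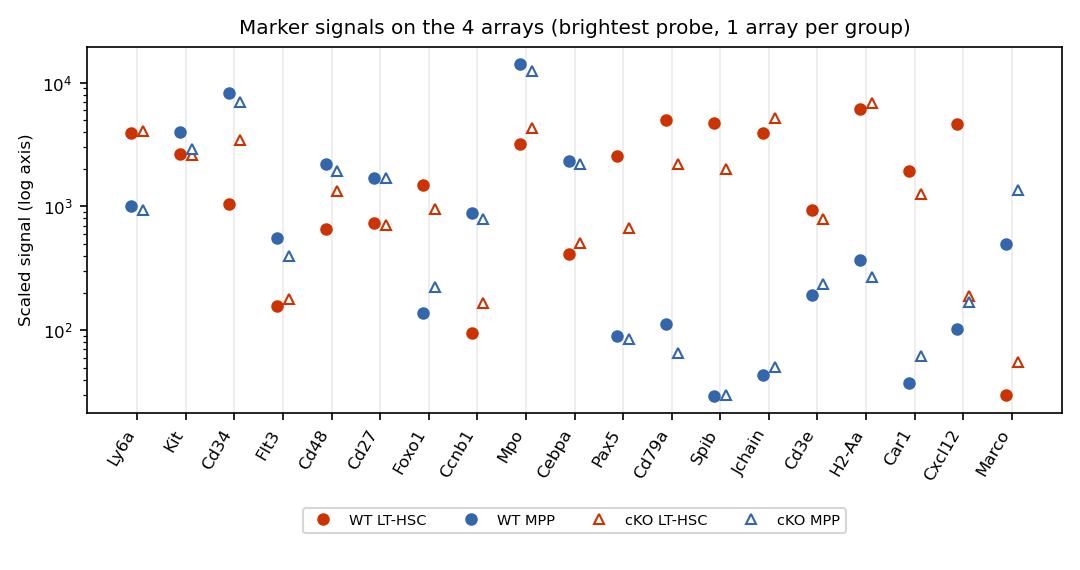
Scaled signal (vertical log axis) of 19 named genes at their brightest probe on each of the 4 arrays. Red is LT-HSC and blue is MPP, filled circles are wild type and open triangles are the p38 alpha knockout, and each point is 1 array. Cd34 stands at 1048 in WT LT-HSC and 8304 in WT MPP. Cxcl12 is high, at 4587, on the WT LT-HSC array and lies between 102 and 190 on the other 3.

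Over the whole array, 26709 genes were measured, meaning that a probe was well above background on at least 1 of the 2 arrays, and 22428 of them on both. The genes counted include intergenic RNA loci. Of the 11090 measured probes for such RNA 16.5% were lower by 2-fold, against 20.6% of the other measured probes. The LT-HSC array was higher by 2-fold or more for 2801 genes, 10.5% of those measured, and lower for 4835 genes, 18.1%. Bounds, used where a gene was above background on 1 array only, made up 697 and 858 of these. The median difference was -0.19 with an interquartile range of 1.10. Taking the percentile over probes above background on all 4 arrays moved that median to -0.04 and the split to 3348 higher and 3763 lower, so the excess of lower genes depended on the scaling. Quantile normalization gave 3231 and 3613, and background correction with quantile normalization 1829 and 1687. List medians below are over genes well above background on both arrays, and stand beside that median of all genes. Counts past 2-fold in a list stand beside the 10.5% higher and 18.1% lower of all genes. In the knockout pair 8.21% of 27072 genes were higher and 6.67% were lower.

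Some genes that hold cells out of the cycle were higher on the LT-HSC array. In the quiescence list, 21 genes of CDK inhibitors, pocket proteins, FoxO factors and antiproliferative genes, 5 were higher by 2-fold, 0 were lower, and the median was 0.70. Foxo1, a FoxO transcription factor, had 1497 against 138 (3.44 ± 0.21, and 1.90 at its other probe), with 956 against 222 in the knockout pair. Btg1, an antiproliferative gene, gave 3240 against 647 (2.32 ± 0.20, and 3.30 at its other probe). Klf4 stood at 2.01 ± 0.20 and Btg2 at 1.54 ± 0.21. Klf2, a Krüppel-like factor associated with resting lymphocytes, stood at 1.25. The CDK inhibitors were closer together. Cdkn1b, which encodes p27, was at 0.70 ± 0.20 and Cdkn1a, which encodes p21, at -0.64 ± 0.07, whereas Cdkn1c, the p57 gene of resting stem cells, was well above background on the LT-HSC array only, at 14 against 19, which gives no fold. The median of the list was 0.65 in the knockout pair. The second brightest measured probe, at any distance from the first, gave a list median of -0.24. The direction of the median did not hold there, over the smaller set of genes that have such a probe.

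The machinery of division was lower on the LT-HSC array. Of the 14 measured genes for G1 cyclins, kinases and E2F factors, 9 were lower by 2-fold and 0 were higher (median -1.27). Cks1b, a small subunit of cyclin-dependent kinases, had 3313 against 15063 (-2.18 ± 0.20, and -2.30 at its other probe). Skp2 (-2.25 ± 0.21), the subunit of a ubiquitin ligase that destroys p27, and E2f1 (-1.56 ± 0.20) were lower as well. E2f3 stood at -2.50 ± 0.20, but at -0.32 at its other probe and at 0.20 in the knockout pair. Cdk4 stood at -1.29 with other probes at -1.32 and -1.62. Ccnd1, the cyclin D1 gene, stood against the list at 0.54 ± 0.20. Of the 37 DNA replication genes 18 were lower and 0 higher (median -0.997). The largest difference was that of Pole2, a subunit of DNA polymerase epsilon, with 43 against 490 (-3.51 ± 0.22), and 135 against 484 in the knockout pair. Orc1, of the origin recognition complex, gave 78 against 375 (-2.27 ± 0.21). Dbf4, the activator of the kinase that fires origins, stood at -2.03 ± 0.21 and Gins2, of the replicative helicase, at -1.89 ± 0.20, with -0.10 for Gins2 in the knockout pair. The MCM helicase subunits were less far apart, such as Mcm7 at -1.26 ± 0.20 and Mcm6 at -0.94 ± 0.20.

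Genes of the G2 and M phases differed most among the cycle lists. Of 32 measured, 25 were lower by 2-fold, 1 of them by bound, and 0 were higher. The median was -1.66, or -1.17 in the knockout pair. Ccnb1, the cyclin B1 gene, had 94 against 889 on the wild-type arrays, and 165 against 797 in the knockout pair. Its difference was -3.24 ± 0.21, a 9.43-fold lower signal, and its other probes gave -1.49 and -1.94. Bub1, of the spindle checkpoint, had 46 against 401 (-3.13 ± 0.07). Foxm1, the factor that drives G2 and M phase genes, had 43 against 360 (-3.06 ± 0.22, and -3.19 at its other probe), but 318 against 441 in the knockout pair. Kif11, the motor that separates spindle poles, gave -2.76 ± 0.21. Mki67, the proliferation marker, had 2439 against 5322 (-1.13 ± 0.20, and -0.87 at its other probe). Cdc25c stood against the list at 0.48 ± 0.21, and at -1.14 in the knockout pair.

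Promoter sequence is shown for some of these genes because G2 and M phase genes are known to be controlled through CCAAT boxes bound by NF-Y and through CHR elements. RefSeq promoter windows of build GRCm38.p6, 250 bases upstream of the start, were available for 25 of the genes in 26 windows. On either strand CCAAT stood in 20 of 26 windows (76.9%) against 33.8% of all 32851 windows, and the CHR letters TTTGAA in 9 (34.6%) against 15.99%. Both stood in 30.8% of the windows of these genes against 5.55% of all. Of the 36 windows of DNA replication genes 6 (16.7%) held an E2F site, searched as TTTCCCGC or TTTGGCGC, against 1.30% of all. Ribosome biogenesis genes held it in 3 of 23 windows (13.0%). CCAAT stood in 55.6% of the DNA replication windows and in 30.4% of the ribosome biogenesis windows. A match is a description of letters, not a measured binding site. The 200 bases before the start follow for 3 genes lower by 2-fold, 5′ to 3′ on the gene's strand, with CCAAT and TTTGAA in capitals. Ccnb1 is on chr13:100786487-100786686 (minus), Ccnb2 on chr9:70421555-70421754 (minus) and Aurka on chr2:172370571-172370770 (minus).
Ccnb1: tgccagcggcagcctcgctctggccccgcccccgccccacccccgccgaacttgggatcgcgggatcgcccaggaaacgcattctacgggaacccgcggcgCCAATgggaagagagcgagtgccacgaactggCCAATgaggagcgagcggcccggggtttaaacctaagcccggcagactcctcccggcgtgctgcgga
Ccnb2: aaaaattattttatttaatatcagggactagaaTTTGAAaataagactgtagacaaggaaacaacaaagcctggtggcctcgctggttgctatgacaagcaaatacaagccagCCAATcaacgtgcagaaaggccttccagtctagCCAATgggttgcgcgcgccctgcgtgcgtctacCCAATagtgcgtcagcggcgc
Aurka: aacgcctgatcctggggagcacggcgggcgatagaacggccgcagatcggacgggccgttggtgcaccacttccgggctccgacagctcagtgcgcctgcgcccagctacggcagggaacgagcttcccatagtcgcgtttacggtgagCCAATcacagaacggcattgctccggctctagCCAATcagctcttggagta
Ccnb2, the cyclin B2 gene, had 106 against 541 (-2.35 ± 0.21), and in the knockout pair 448 against 546. Aurka, the kinase of spindle poles, had 316 against 1356 (-2.10 ± 0.20), and in the knockout pair 513 against 1176. Where Ccnb1 and Aurka were below their MPP arrays in both pairs, Ccnb2 differed by only -0.29 in the knockout pair.

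**Figure D2:**
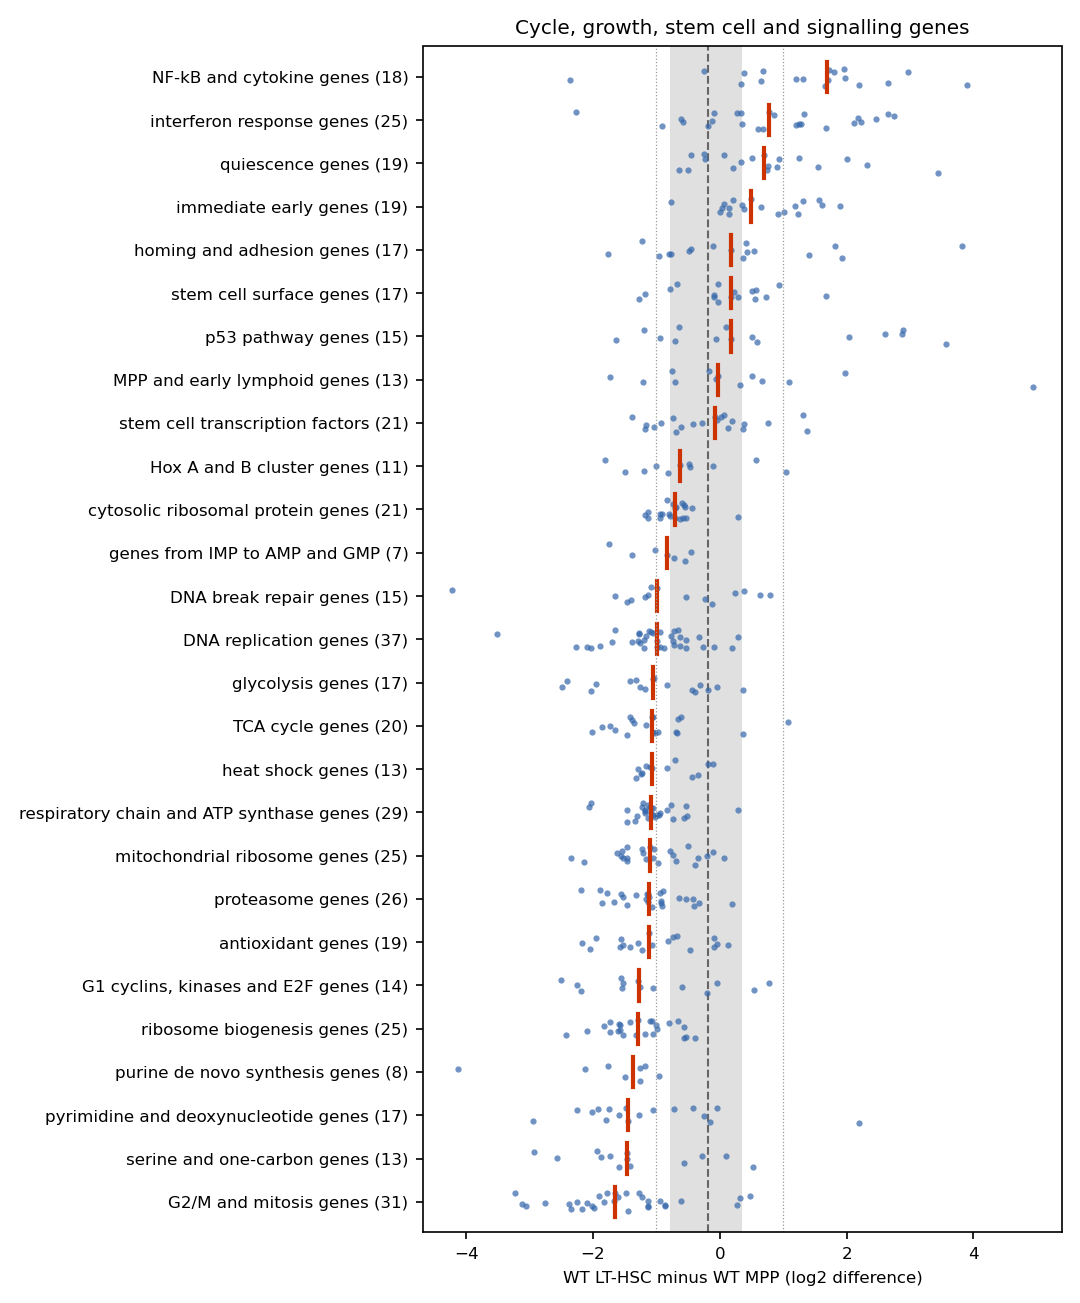
Log2 difference, WT LT-HSC minus WT MPP, of each gene measured on both arrays (blue points) in 27 lists, with the number of genes in parentheses and the list median as a red bar. The grey band is the interquartile range over all genes, the dashed line their median of -0.19, and dotted lines mark 2-fold. The median of the G2 and M phase list is the lowest at -1.66, and that of the NF-kB and cytokine list is the highest at 1.68.

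Building blocks and energy genes were lower together. All 8 purine de novo synthesis genes were below 0, 7 by 2-fold or more (median -1.38). Prps2, which makes the sugar phosphate precursor, gave 20 against 356 on the wild-type arrays and 252 against 344 in the knockout pair. Its wild-type difference was -4.13 ± 0.28. Adsl, an enzyme of the pathway, had -2.13 ± 0.21. Of the 7 genes from IMP to AMP and GMP 3 were past the call (median -0.84), among them Guk1, the guanylate kinase, at -1.75 ± 0.21. In pyrimidine and deoxynucleotide synthesis 11 of 17 were lower and 1 was higher (median -1.45). Tyms, thymidylate synthase, stood at -2.25 ± 0.29, and at 0.54 in the knockout pair. The higher one was Rrm2b, the p53-induced subunit of ribonucleotide reductase, at 2.20 ± 0.26, but its other probe was at -0.40 and the knockout pair at -0.47. In serine and one-carbon metabolism 9 of 13 were lower (median -1.47). Mthfd2, a mitochondrial folate enzyme, had 238 against 1417 (-2.58 ± 0.20), with 866 against 1293 in the knockout pair.

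In glycolysis 10 of 17 genes were lower (median -1.05). Pgk1 had 3094 against 12711 (-2.04 ± 0.20) and Hk2 65 against 345 (-2.42 ± 0.21). Gapdh was lower at all of its probes (-1.41, -1.73, -1.86 and -1.93). In the TCA cycle 13 of 20 were lower (median -1.07), led by Sucla2 at -2.01 ± 0.20, and Idh3b stood at 1.07 ± 0.20 and at -0.36 in the knockout pair. Of the 29 respiratory chain and ATP synthase genes 19 were lower (median -1.09), led by Uqcrc2 of complex III at -2.07 ± 0.07. The mitochondrial ribosome gave 15 of 25 lower (median -1.10). With quantile normalization the median was -0.57 for glycolysis and -0.64 for the respiratory chain, and with background correction as well -0.54 and -0.57.

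Of the 25 ribosome biogenesis genes 18 were lower and 0 higher (median -1.29). Nip7, an assembly factor of the large subunit, had 243 against 1032 (-2.09 ± 0.20, and -2.06 at its other probe). Srm, spermidine synthase and a known Myc target, had 6412 against 19572 (-1.61 ± 0.20, and -1.63 at its other probe). In this list each of the 11 genes with several separate probes had 1 sign at all of them. Of the 21 cytosolic ribosomal protein genes 3 were lower, a smaller share than the 18.1% of all genes, and their median was -0.71, or -0.19 with quantile normalization. Myc stood at -1.54 ± 0.14 and at -1.65 in the knockout pair. Proteasome genes had 15 of 26 lower (median -1.12), heat shock genes 7 of 13 (median -1.07) and antioxidant genes 11 of 19 (median -1.12). Quantile normalization brought these medians to -0.61, -0.67 and -0.71. Of the 18 DNA break repair genes measured 10 were lower (median -0.99), led by Ercc1, of an excision repair nuclease, at -4.22 ± 0.32 and at -0.98 in the knockout pair.

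For the growth and metabolic lists the knockout pair had the same sign but smaller medians. They were -0.74 for DNA replication, -0.75 for ribosome biogenesis, -0.84 for purine synthesis, -0.58 for the respiratory chain and -0.42 for pyrimidine and deoxynucleotide synthesis. For some of these genes the WT LT-HSC array stood apart from the other arrays. Prps2 lay at 252 to 356 on the other 3 arrays, and Foxm1 at 318 to 441. Whether this is the cells of that array or the array itself was not tested. Normalization by quantiles brought the ribosome biogenesis median to -0.83, and the G2 and M phase median to -1.39.

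Genes known from stem cells lay on both sides. The 17 stem cell surface genes measured on both arrays had a median of 0.18, with 1 higher and 2 lower by 2-fold. Of all genes 10.5% were higher and 18.1% lower. Tie1, an endothelial and stem cell receptor, was higher (1.67 ± 0.21) with -0.81 in the knockout pair. Procr, the protein C receptor used to enrich stem cells, was lower (112 against 254, -1.18 ± 0.21), with 277 against 232 in the knockout pair. Abcg2, the transporter behind the side population, stood at -1.28 ± 0.21 and at -1.14 in the knockout pair. Slamf1, the CD150 gene, was near background, at 23 against 4 on the wild-type arrays. Of the 22 stem cell transcription factors 3 were higher, 1 of them by bound, and 4 lower (median -0.07). These shares were close to the 10.5% and 18.1% of all genes. Prdm16, needed to maintain stem cells, had 223 against 86 (1.37 ± 0.21) and 142 against 50 in the knockout pair. Zfpm1 gave 1.31 ± 0.20. Mllt3, a regulator of stem cell self-renewal, was above background on the LT-HSC array only. Lower were Etv6 (-1.38 ± 0.20, but -0.34 at its other probe), Lmo2 (-1.18 ± 0.20), Erg (-1.16 ± 0.21) and Lyl1 (-1.04 ± 0.20). Hlf, a stem cell marker, was at -0.74 ± 0.20 and Mecom at 0.13 ± 0.21, with 0.11 and -1.75 in the knockout pair. In the Hox clusters 4 of 12 measured genes were lower and 1 was higher (median -0.63), led by Hoxa4 at -1.81 ± 0.24 and Hoxa9 at -1.501 ± 0.20, with -3.19 at its other probe.

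The MPP and early lymphoid list split. Its median was -0.02, with 6 of 19 higher and 4 lower by 2-fold, against 10.5% and 18.1% of all genes. Besides Cd48 and Cd27, Mn1 was above background on the MPP array only, at 4 on the LT-HSC array and 97 on the MPP array. On the other side were Ly6d, a marker of lymphoid progenitors, with 1285 against 42 (4.94 ± 0.25), Lsp1 with 2892 against 736 (1.97 ± 0.20), Ccr9 and Il7r. Il7r, the interleukin-7 receptor chain of lymphoid progenitors, had 792 on the WT LT-HSC array and 263 on the cKO LT-HSC array, against 4 and 3 on the MPP arrays. Dntt, the lymphoid DNA polymerase, was at 0.33 ± 0.20. Of the list's calls 3 higher and 2 lower were by bound.

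Many genes of differentiated cells were higher on the LT-HSC array, though the first sort took lineage-negative cells. Of the 14 B cell progenitor genes 13 were higher by 2-fold, 3 of them by bound, and the median was 4.14. Cd79a, a part of the B cell receptor, had 5012 against 113 (5.47 ± 0.21, or 44.3-fold), with 2213 against 65 in the knockout pair. Pax5, the factor that commits B cells, had 2550 against 90 (4.83 ± 0.21, and 4.90 at its other probe), with 670 against 86 in the knockout pair. Pou2af1 stood at 5.16 ± 0.21 and Vpreb1, of the surrogate light chain, at 4.62 ± 0.23. Cd24a stood against the list at -0.58 ± 0.20. Of the 9 mature B cell genes 3 were higher by bound, having been measured only through the LT-HSC array. Of the 6 measured on both arrays 2 were higher (median 0.71), with Fcmr at 5.01 ± 0.25. Among 8 plasma cell genes 6 were higher, 2 of them by bound (median 1.25), and Jchain, the joining chain of secreted antibodies, gave 3922 against 44 (6.49 ± 0.23), with 5190 against 51 in the knockout pair.

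Of the 17 plasmacytoid dendritic cell genes 14 were higher, 2 of them by bound, and 0 lower (median 2.19). Spib, a factor of that lineage, had 4749 against 29 (7.33 ± 0.29), and 2003 against 30 in the knockout pair. Klk1 (6.17 ± 0.27), Upb1 (6.01 ± 0.34) and Pld4 (4.57 ± 0.22) were higher as well. Siglech, the surface lectin of these cells, was level at its brightest probe (-0.02) and higher at its others, by 5.70 and 4.53, so its probes do not give 1 answer. Of 16 T cell genes 12 were higher, 6 of them by bound (median 1.47). Zap70, a kinase of T cell receptor signalling, stood at 2.98 ± 0.22, and Ms4a4b at 2.51 ± 0.22 with 4.12 at its other probe. Lef1 stood at 3.40 ± 0.22, but at 0.06 at a dimmer probe that was well above background on the LT-HSC array only. Cd3e, of the T cell receptor complex, had 928 against 192, and 791 against 235 in the knockout pair. Of the 6 NK cell genes measured on both arrays 2 were higher (median 0.52), with Gzmb at 3.66 ± 0.24, and another 4 were higher by bound. Of the 8 Gimap GTPase genes, which are expressed in lymphocytes, 6 were higher, 2 of them by bound. Gimap4 had 3501 against 25 (7.16 ± 0.32, with 6.81 and 3.56 at its other probes).

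Antigen presentation genes of MHC class II were higher in 8 of 10 cases (median 2.60, and 2.48 in the knockout pair). H2-Aa had 6142 against 370 (4.05 ± 0.20), and 6885 against 271 in the knockout pair. H2-Eb1 had 971 against 34 (4.82 ± 0.27), and 1004 against 54. Cd74, the invariant chain, had 16658 against 780 (4.42 ± 0.20). Ciita, the master regulator of the locus, was at -0.09 ± 0.20. Promoters of the group are known for a Y box that NF-Y binds, which is an inverted CCAAT box. CTGATTGG stood in 3 of 8 windows (37.5%) against 3.83% of all. These letters also stood in 16.7% of DNA replication, 15.4% of G2 and M phase and 4.35% of ribosome biogenesis windows. CTGATTGG overlaps the reversed CCAAT letters. The 200 bases before the start are shown for H2-Aa (chr17:34287824-34288023, minus) and H2-Eb1 (chr17:34305667-34305866, plus) of build GRCm38.p6, with CTGATTGG in capitals.
H2-Aa: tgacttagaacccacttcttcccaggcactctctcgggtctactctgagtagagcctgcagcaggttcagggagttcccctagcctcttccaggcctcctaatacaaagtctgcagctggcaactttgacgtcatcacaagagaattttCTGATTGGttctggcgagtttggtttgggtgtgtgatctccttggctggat
H2-Eb1: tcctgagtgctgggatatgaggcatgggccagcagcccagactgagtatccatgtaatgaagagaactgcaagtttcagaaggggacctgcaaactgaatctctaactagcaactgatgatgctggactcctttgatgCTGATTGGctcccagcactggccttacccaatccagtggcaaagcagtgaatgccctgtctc

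Myeloid genes lay on both sides. In the neutrophil list 11 of 20 were higher and 6 lower by 2-fold. Among the higher ones were Chil3 (3478 against 781, 2.15 ± 0.20), Mmp8 (1.88 ± 0.21), Ltf (1.87 ± 0.20) and S100a8 (1.72 ± 0.20). Among the lower ones Mpo, myeloperoxidase, had 3167 against 14222 (-2.17 ± 0.20, and -2.56 at its other probe), with 4323 against 12445 in the knockout pair. Cebpa, which commits progenitors to the myeloid lineage, had 410 against 2339 (-2.51 ± 0.20), and Prtn3 and Ctsg followed at -2.50 ± 0.20 and -1.91 ± 0.20. Mmp9, a protease of mature neutrophil granules, had 12.8 against 49.9 (-1.97 ± 0.13), but 196 against 91.7 in the knockout pair. Of 18 macrophage genes 9 were lower, 2 of them by bound, and 0 higher (median -0.99, and -2.12 in the knockout pair). Marco, a scavenger receptor, had 30 against 499 (-4.05 ± 0.24), with 55 against 1351 in the knockout pair. In the basophil, mast cell and eosinophil list 4 of 9 were lower, 1 of them by bound, and 1 was higher. Cpa3 stood at -3.44 ± 0.21 and Prg2 at 2.62 ± 0.21.

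Erythroid genes gave 8 of 14 higher, 1 of them by bound, and 0 lower (median 1.19). Car1, carbonic anhydrase 1, had 1924 against 37 (5.68 ± 0.25, and 3.27 at its other probe). Ank1, a red cell skeleton gene, stood at 4.14 ± 0.22, Epor at 2.79 ± 0.22 and Gata1 at 2.08 ± 0.21. Of 15 megakaryocyte genes 2 were higher and 3 lower (median 0.00), shares near the 10.5% and 18.1% of all genes. Tubb1 stood at 3.14 ± 0.28. Of the 16 stromal and endothelial genes 11 were higher, 4 of them by bound, with a median of 1.24, but the median of the knockout pair was -0.27. Cxcl12, the niche chemokine that retains stem cells, had 4587 in WT LT-HSC, 102 in WT MPP, and 190 and 168 in the knockout pair. Its wild-type difference was 5.49 ± 0.21 at the brightest probe and 1.53 at the other. Col1a1, a collagen, had 384 against 31 (3.62 ± 0.26), and 20 against 22 in the knockout pair.

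**Figure D3:**
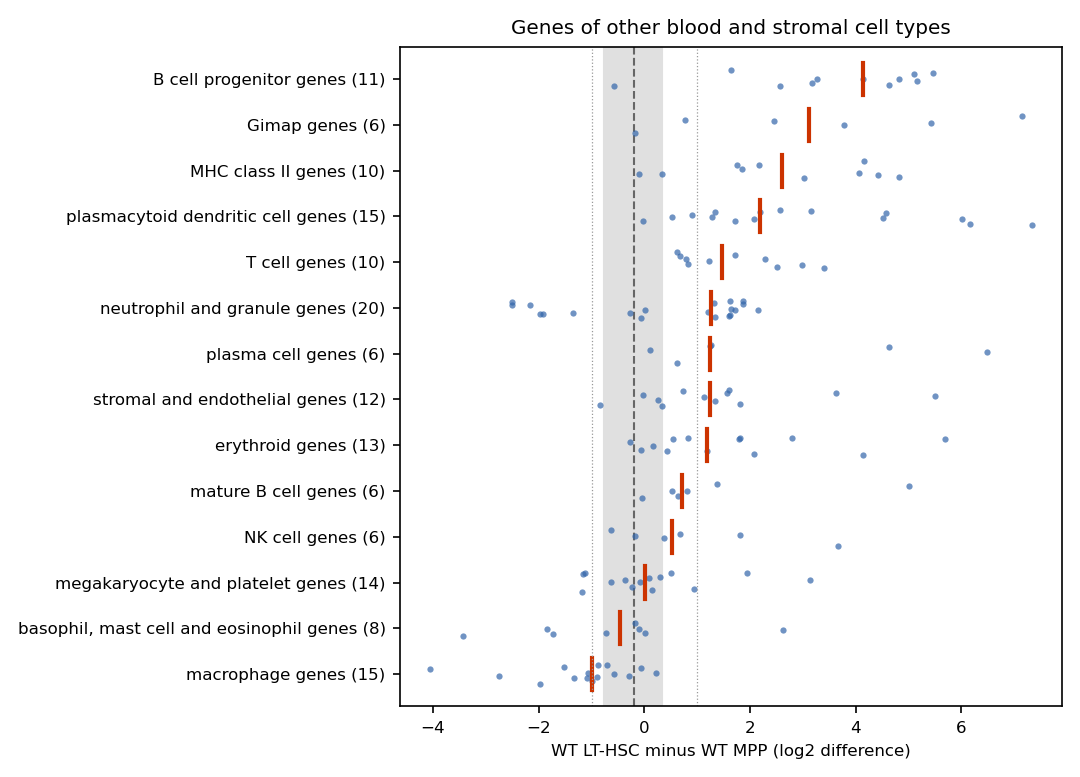
Log2 difference, WT LT-HSC minus WT MPP, of each gene measured on both arrays (blue points) in 14 lists of other cell types, with the list median as a red bar. The grey band is the interquartile range over all genes, the dashed line their median, and dotted lines mark 2-fold. The B cell progenitor list has the highest median at 4.14, and the macrophage list the lowest at -0.99.

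The summed levels of these lists differed alongside the cell cycle and stem cell genes, and their part in those results was not tested. Levels were summed over the measured members in units of the array's 75th percentile. Measured members are those well above background on at least 1 of the 2 wild-type arrays. Of them 3 B cell progenitor, 2 plasmacytoid dendritic cell and 6 T cell genes entered through the LT-HSC array only. Counts above background on that array, and the sums, are therefore partly set by this filter. The B cell progenitor sum was 114 in WT LT-HSC against 19.5 in WT MPP, and 52.6 against 16.7 in the knockout pair. All 14 B cell progenitor genes were well above background in WT LT-HSC and 11 in WT MPP. For plasmacytoid dendritic cells the sums were 187 against 53.5, with 17 and 15 of 17 above background, and 115 against 56.9 in the knockout pair. T cell sums were 38.2 against 12.1, with 16 and 10 of 16 above background. Stromal and endothelial sums were 47.8 against 12.5, and 10.3 against 13.8 in the knockout pair. Macrophage sums were 49.2 against 73.2, and 40.9 against 159 in the knockout pair.

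Signalling genes were higher on the LT-HSC array in several groups. Immediate early genes are switched on within minutes of stimulation. Of 21 measured, 9 were higher by 2-fold, 2 of them by bound, and 0 lower (median 0.48, and 0.69 in the knockout pair). Nr4a1, an orphan nuclear receptor, had 1221 against 327 (1.90 ± 0.20), with 344 against 135 in the knockout pair. Nr4a2 (1.60 ± 0.21, and 1.36 at its other probe) and Junb (1.57 ± 0.21) followed. Fos and Egr1 were at 0.15 ± 0.06 and 0.38 ± 0.20. In the NF-kB and cytokine list 12 of 18 were higher and 1 lower (median 1.68, but 0.44 in the knockout pair and 1.06 with background correction and quantile normalization). Traf1, a signalling adaptor and NF-kB target, had 802 against 54 (3.89 ± 0.23), and 357 against 64. Tnfaip3, the feedback inhibitor A20, had 2073 against 330 (2.65 ± 0.20), and 1029 against 412. The neutrophil chemokine gene Cxcl2 gave 2.96 ± 0.29, while the chemokine gene Ccl3 stood at -2.37 ± 0.21. Of the 26 interferon response genes 12 were higher, 1 of them by bound, and 1 was lower (median 0.77). Stat2, which carries the interferon signal, stood at 2.65 ± 0.21. Ifit2 stood against the list at -2.27 ± 0.25, and at 0.97 in the knockout pair.

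Among 18 p53 pathway genes 5 were higher and 3 lower, 1 of the lower ones by bound (median 0.17). Trp53inp1, a p53-induced stress gene, had 713 against 60 (3.56 ± 0.23, and 4.43 at its other probe), with 517 against 76 in the knockout pair. Pmaip1, which encodes the death protein Noxa, stood at 2.87 ± 0.22, and at 2.32 in the knockout pair. Plk2 stood at 2.88 ± 0.26 but at 0.51 in the knockout pair. Zmat3 (2.60 ± 0.27) was well above background in the knockout pair on the MPP array only, at 10.8 against 22.1. Perp stood at -1.64 ± 0.23, and at 0.42 in the knockout pair. Mapk14, which encodes p38 alpha itself, was at 0.34 ± 0.20 with -0.65 at its other probe. Of the 18 p38 pathway genes 5 were lower and 1 was higher (median -0.01). The lower ones included Rps6ka5 (-2.92 ± 0.27) and Rps6ka4 (-2.20 ± 0.24), kinases downstream of p38, Map2k3 (-2.11 ± 0.24), an activator of p38, and Mapkapk3 (-1.68 ± 0.20, and -0.74 at its other probe), a kinase that p38 activates. The knockout pair gave -0.04, 0.66, -0.29 and -0.29 for these. Mapk11, which encodes p38 beta, had 629 against 64 (3.30 ± 0.22), with 150 against 73 in the knockout pair. Among homing genes 4 of 17 were higher and 2 lower (median 0.18), against 10.5% and 18.1% of all genes. S1pr1, the receptor by which lymphocytes leave tissues, had 305 against 22 (3.82 ± 0.32), with 299 against 57 in the knockout pair. The integrin chains Itgb2 and Itgb7 stood at 1.93 ± 0.20 and 1.82 ± 0.20. Of the 8 DNA methylation enzyme genes 2 were higher and 3 lower. Dnmt1, the maintenance enzyme, stood at -1.48 ± 0.20 and Tet2, which oxidizes methylcytosine, at 1.41 ± 0.20, with 1.41 and 0.47 at its other probes.

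Chosen without regard to any list, the genes with the largest differences at the weaker of several separate probes included B cell, erythroid and stress genes on the higher side. Igh-VJ558, an immunoglobulin heavy chain segment, had 31320 against 239 (at least 6.61 at every probe). Others were Pax5, Bank1, a B cell scaffold (at least 3.61), Trp53inp1, Car1, Mpeg1, a perforin-like gene of phagocytes (at least 3.13), A130040M12Rik (at least 3.07) and Ets1 (at least 3.003), a lymphoid transcription factor. The interferon gene Ifi207 (at least 2.65) and an intergenic RNA on mm9 chromosome 16 closed the group of 10. On the lower side the largest was Egln3, a prolyl hydroxylase of the oxygen response, with 63.5 against 804 and a difference of -3.66 or below at every probe. Cd34 was second. Tigar (-2.85 at the weaker probe), a regulator of glycolysis, Rad18 (-2.48), a ubiquitin ligase of damage bypass, Fuom (-2.45), Dusp12 (-2.40), Ncbp2 (-2.31), Eif2b3 (-2.30), Cep55 (-2.25) and another intergenic RNA on chromosome 16 (-2.49) followed. For Fuom, Dusp12 and that RNA the knockout pair gave 0.34, -0.06 and 0.29. Among genes with several separate probes of 1 sign, the largest bounds were those of 3 immunoglobulin transcripts known by their identifiers (ENSMUST00000103420, ENSMUST00000103443 and ENSMUST00000103328), at least 268-, 177- and 164-fold higher. The other probe of the first was at 0.33. Ccr9, at least 128-fold higher, and Cd2, at least 116-fold higher, came next. On the lower side of the same genes the largest was Snx16 (at least 12.2-fold, with -0.90 at the probe that differed least), followed by Copg2, Tmem69, Adamts3 and Fam83e. Of 11090 probes for intergenic non-coding RNA, 10.8% were higher by 2-fold and 16.5% lower, against 10.8% and 20.6% of the other measured probes.

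Agreement between probes of a gene bears on the probes and not on the cells. Of 2084 genes at 2-fold or more whose second brightest probe lay at least 60 bases away on the genome, 76.1% had the same sign at that probe, 46.4% were also past 2-fold and 5.52% were past 2-fold the other way. The share was 67.7% of the 880 higher genes and 82.1% of the 1204 lower ones. Signs are taken against 0, while the median over all genes was -0.19, and -0.27 at second brightest probes. A negative sign was therefore the more frequent one for any gene, so these 2 shares are not a like comparison. Over both directions the share was 69.0% where the second probe had a mean signal under 100, 83.9% from 100 to 1000 and 98.2% above 1000. The mix of directions changed with signal, from 599 higher and 656 lower genes under 100 to 15 and 150 above 1000. In the same order the share was 61.9%, 79.3% and 93.3% of the higher genes. For the lower genes it was 75.5%, 86.9% and 98.7%. Probe pairs that overlap on the genome shared the sign in 96.2% of 106 cases.

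**Figure D4:**
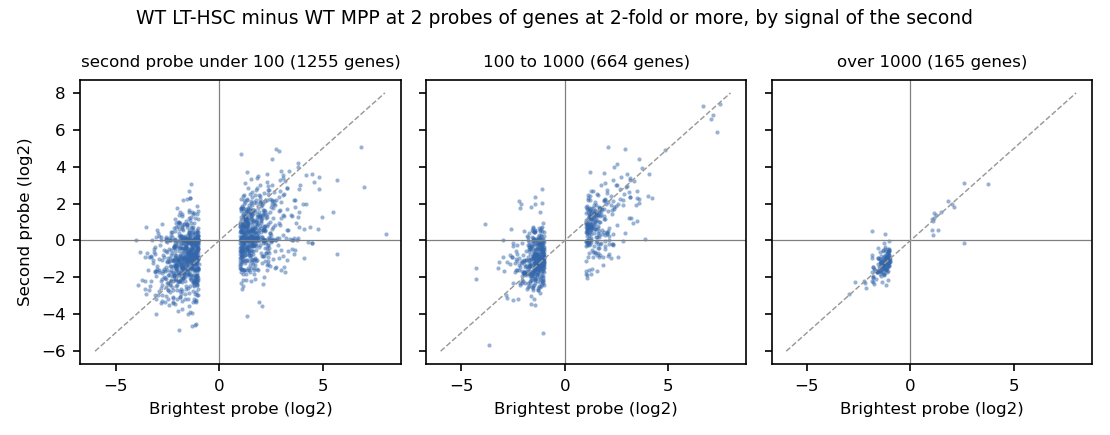
Log2 difference, WT LT-HSC minus WT MPP, at the brightest probe (horizontal) and the second brightest probe (vertical) of genes at 2-fold or more, in 3 panels by the second probe's mean scaled signal. Each point is 1 gene and the dashed line is equality. The same sign is shared by 69.0%, 83.9% and 98.2% of the genes from left to right. Higher and lower genes are pooled in these shares, and their mix differs between the panels.

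A measure of RNA quality was alike on both arrays. The most 3′ probe of a gene exceeded the most 5′ one by a median of 0.28 on the LT-HSC array and 0.28 on the MPP array over 3617 genes. The median of the difference between the arrays was 0.06. The knockout pair gave 0.29 and 0.30.

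Across the 21527 genes well above background on all 4 arrays the knockout pair showed a narrower range than the wild-type pair, with an interquartile range of 0.76 against 1.11. Among all 21527 genes, 1980 were higher and 3904 lower by 2-fold in the wild-type pair, and 1315 and 1383 in the knockout pair. The shares below are to be read beside these counts. Of the 1980 genes higher by 2-fold in the wild-type pair 35.2% were so in the knockout pair, which is 53.004% of the 1315 higher there. Of the 3904 lower in the wild-type pair 17.6% were so, which is 49.7% of the 1383 lower there. The sign was shared by 76.0% of the higher and 83.6% of the lower wild-type genes, and 82 and 92 were past 2-fold the other way. With a median of -0.10 in the knockout pair, a negative sign was the more frequent one there. The correlation of the differences was 0.57 across genes, which are not independent replicates. The pairs differ in genotype as well as in cells, so neither is a replicate of the other.

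**Figure D5:**
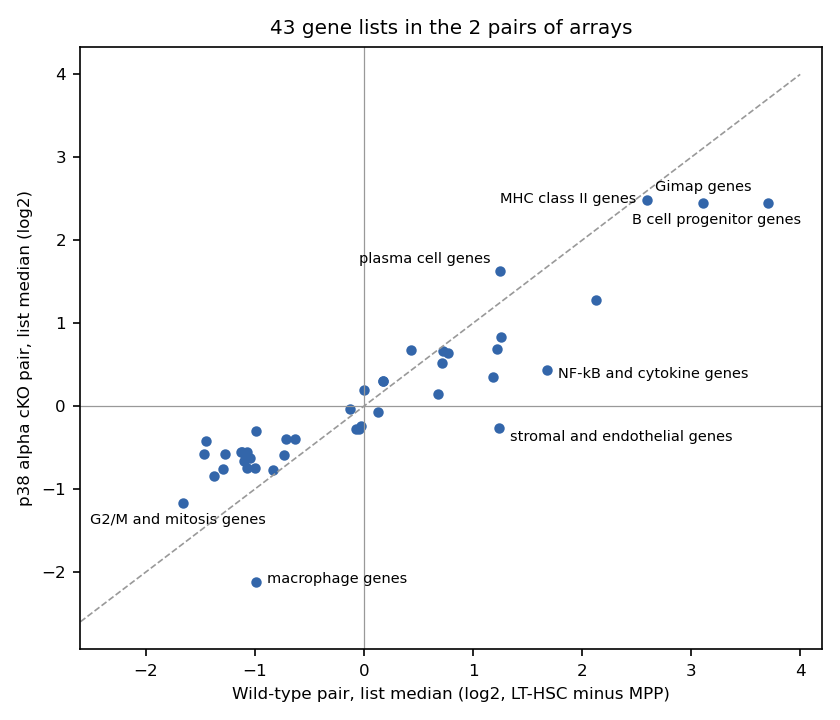
Median log2 difference, LT-HSC minus MPP, of 43 gene lists with at least 5 genes measured on all 4 arrays, in the wild-type pair (horizontal) and the p38 alpha knockout pair (vertical). Each point is 1 list and the dashed line is equality. The stromal and endothelial list stands at 1.24 and -0.27, and the macrophage list at -0.99 and -2.12.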

How the data were processed

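Gene expression was measured on 1 array per group. The authors' deposited scanner tables hold the intensity of each spot on a linear scale. Per the file headers the software was Agilent Feature Extraction, version 10.7.3.1, while the submitters' processing notes name 9.5.3. Background had been subtracted and no scaling between arrays applied. Flags in the authors' deposited tables are a yes-or-no score for each spot, and probe positions are on mm9. The authors' deposited value table holds a ratio per probe that centres near 100, with column medians of 91.89, 107.3, 97.48 and 102.47 (wild type, then knockout, LT-HSC first). On the log2 scale its wild-type difference lay within 0.01 of the scanner values, after 1 offset, for 99.998% of probes. Its direction is therefore known, and how it was centred and scaled is not stated.

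Processed signals were put on the log2 scale, outlier spots dropped, spots of a probe averaged, and the 75th percentile of each array subtracted. A gene above background on 1 array was given a bound against the lowest signal above background on the other. Names came from the RefSeq table of GRCm38.p6, where 26852 probes matched by accession, 3755 by symbol, 625 by an older symbol, and 24437 kept the file's name. The labels' cells were checked against the sort genes.

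The 45 gene lists and the members were chosen with earlier results of these data known. The text names every sort and sex-linked gene, up to 4 members of a list each way whose probes share the sign, the 10 genes each way by the weakest of several probes, the 5 largest bounds each way, and genes against their list. Other genes named were chosen after their values were seen, and a few that the rule picks are not reported here. With 1 array per group there are no tests and no p-values. On simulated data with 200 planted genes, the 2-fold call found 98% of those planted at 1.5 (log2) and 100% at 2. It called 0.201% of the unchanged genes among 23629. Both simulated arrays were the WT MPP levels and flags, with the scanner error as the only noise. These shares check the code. They are no error rate for the comparison, because noise from cells, sorts and amplification was absent. Alternatives covered scaling, quantile and normexp (offset 50) normalization with limma 3.58.1 in R 4.3.3, filters, probe choice and outlier spots. Precision is limited by the number of arrays.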

Additional observations from a re-analysis of the deposited data

Results flagged for a closer look

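For 1 gene list the medians of the wild-type and knockout pairs lay on opposite sides by more than 0.21 (log2) each, the median scanner error of a difference. The median of the stromal and endothelial genes was 1.24 in the wild-type pair and -0.27 in the knockout pair. Over the genes measured in both pairs, the medians of p53 pathway genes (0.13 and -0.07) and sex-linked check genes (0.36 and -0.17) also had opposite signs, each with 1 or both values within that size. Those of DNA methylation enzyme genes did so (0.10 and -0.28) only when each pair was taken over its own measured genes. Among the named genes, Mmp9 was lower by 2-fold or more in the wild-type pair (-1.97) and higher by 2-fold or more in the knockout pair (1.10). None of these differences between pairs was tested.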

How the results depend on the processing

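No paired analysis was possible because each group had 1 array, and for the same reason no array could be left out. Of 45 list medians 37 had 1 sign in every setting. Background correction (normexp) with quantile normalization gave 1829 genes higher and 1687 lower, and the second brightest probe, over 7964 genes, 901 and 1712. Medians near 0 turned. For MPP and early lymphoid genes they were 0.12 with the percentile over probes above background on all 4 arrays, 0.18 with quantiles, 0.15 with normexp and 0.15 with no filter. In the same order of the first 3 settings, stem cell transcription factors gave 0.080, 0.093 and 0.037 and p38 pathway genes 0.14, 0.32 and 0.061. Megakaryocyte genes gave -0.044 and DNA methylation enzymes -0.29 with the mean of probes. With the second brightest probe the medians of stem cell transcription factors (0.51), quiescence (-0.24), p53 pathway (-0.44), homing (-0.62) and DNA methylation genes (-0.69) turned, as did Flt3 (0.22), Rrm2b (-0.40) and Uty (-0.60). Other medians kept their sign and changed in size. With quantiles DNA replication was at -0.71, G2 and M phase at -1.39 and ribosome biogenesis at -0.83. With normexp these were -0.68, -1.14 and -0.86, B cell progenitor genes 2.84 and macrophage genes -0.58. The second probe gave -0.72 for DNA replication, 4.90 for B cell progenitor and -0.55 for macrophage genes, and no filter 3.77 for B cell progenitor genes. The causes were not tested. The share of higher genes among those called was 36.7%, against 47.1%, 47.2% and 52.0% in the first 3 settings. Dim second probes shared the sign less often, which limits genes of low signal.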
